A study of Mus musculus with 8 samples.

Results

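The BCL2 family decides whether a cell keeps its mitochondria intact or dies by apoptosis. The 10 family members described here were chosen by symbol: the pro-survival proteins Bcl2, Bcl2l1 (BCL-XL) and Mcl1, the pore-forming effectors Bax and Bak1, and the BH3-only proteins Bbc3 (PUMA), Pmaip1 (NOXA), Bcl2l11 (BIM), Bid and Bad. Of these, 9 had a row among the 21950 genes of the count table, matched by Entrez identifier. Bad had none, and its gene lies on chromosome 19 across the start of Gpr137, which did have a row.

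In this pathway BH3-only proteins carry death signals to the mitochondrion, where they bind the pro-survival proteins or activate the effectors. BAX and BAK1 then form pores in the outer membrane, and released cytochrome c starts the caspase cascade. In the mouse germ line, the balance of BCL-XL and BAX governs the survival of primordial germ cells (PGCs), and PUMA and NOXA act in the death of oocytes after DNA damage. Bax, Bbc3 and Pmaip1 are textbook targets of the transcription factor p53, and Bcl2l11 and Bbc3 of FOXO factors.

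The libraries come from 2 groups of 4. The d6PGCLCs are PGC-like cells made in culture from 1 female mouse iPSC line (BVSC-iPSC, derived from adult tail tip fibroblasts), which carries Blimp1-Venus and Stella-ECFP reporters. They were sorted as double-positive cells at day 8 of culture, which is day 6 after leaving the epiblast-like state. The culture after that state began with BMP4, SCF, LIF and EGF. The methods list a later change to medium with lower doses of SCF, LIF and EGF, and BMP4 is not listed for it. The E12.5 PGCs were sorted from pooled female gonads of C57BL/6J fetuses at E12.5 by SSEA1 and integrin β3. Each library is a pool of cells from an independent experiment, so that the d6PGCLC replicates are separate inductions of the same line, and line, strain, culture and stage cannot be told apart.

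The counted reads ranged from 8054596 to 12024841 in d6PGCLCs and from 7991437 to 11166023 in E12.5 PGCs, and 3 counts in a library correspond to 0.249 to 0.383 CPM, which are counts scaled to a library total of 1e6. All 11 germ cell markers examined were detected in every library. Of these, 5 were higher in d6PGCLCs (Prdm1, Prdm14, Dppa3, Pou5f1 and Tfap2c, with log2 fold changes of 0.65 to 1.21) and 4 were lower (Dnd1 and Itgb3 at -0.59 and -0.72, and the late germ cell genes Dazl and Ddx4 at -5.07 and -4.42). Prdm1 (Blimp1) and Dppa3 (Stella) reporters were used to sort the d6PGCLCs and integrin β3 (Itgb3) to sort the PGCs. Over the 6 gonadal somatic markers with a row, the summed level ran from 0.305 to 0.766 CPM in the d6PGCLC and from 1.44 to 4.42 CPM in the E12.5 PGC libraries. Over 4 endothelial markers it ran from 19.9 to 34.5 CPM and from 14.4 to 24.4 CPM, and over 6 blood markers from 12.1 to 17.4 CPM and from 1.75 to 36.7 CPM. The upper end of the last range came from globin in E12.5 PGC replicate 2. The macrophage genes went the other way: Cd68 was higher in d6PGCLCs (12.6 against 2.25 CPM on average, log2 fold change 2.46, edgeR adjusted p = 1.67e-07), and Csf1r had 12 to 24 counts in each d6PGCLC library and 0 in all 4 E12.5 PGC libraries (adjusted p = 5.34e-06). The endothelial gene Cdh5 was higher too (log2 fold change 1.39, edgeR adjusted p = 0.000193). The leukocyte marker Ptprc was at 0 in 7 of the 8 libraries, and the endothelial marker Emcn had counts in 1 library alone, E12.5 PGC replicate 2. The part of such cells in the results on the family was not tested. In bulk libraries, fewer cells of a kind and less RNA per cell cannot be told apart.

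Of the 9 members with a row, 6 were higher in d6PGCLCs (Mcl1, Bax, Bak1, Bbc3, Pmaip1 and Bcl2l11), 1 was lower (Bcl2l1) and 2 did not pass the test (Bcl2 and Bid). The test was edgeR's quasi-likelihood test with Benjamini-Hochberg adjustment over all genes at a threshold of 0.05, and each fold change divides the d6PGCLC level by that of the E12.5 PGCs. By the same rule, 31.5% of all genes passed, 16.1% higher and 15.4% lower. Many genes of the table are scarcely expressed, and of the 11487 genes with a mean of at least 1 CPM, 53.6% passed, 28.1% higher and 25.6% lower. All members but Bcl2 reach that mean. The median log2 fold change of the 9 members was 0.40, against 0.01 for these 11487 genes. Only Bak1 and Pmaip1, 2 of the 9, passed with a log2 fold change of 1 or more in size, as 14.7% of all genes and 21.6% of these 11487 did. The 2 groups did not overlap in 5 members (Bcl2l1, Mcl1, Bak1, Pmaip1 and Bcl2l11), and they did not overlap in 30.2% of all genes and in 51.1% of these 11487.

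**Figure D1:**
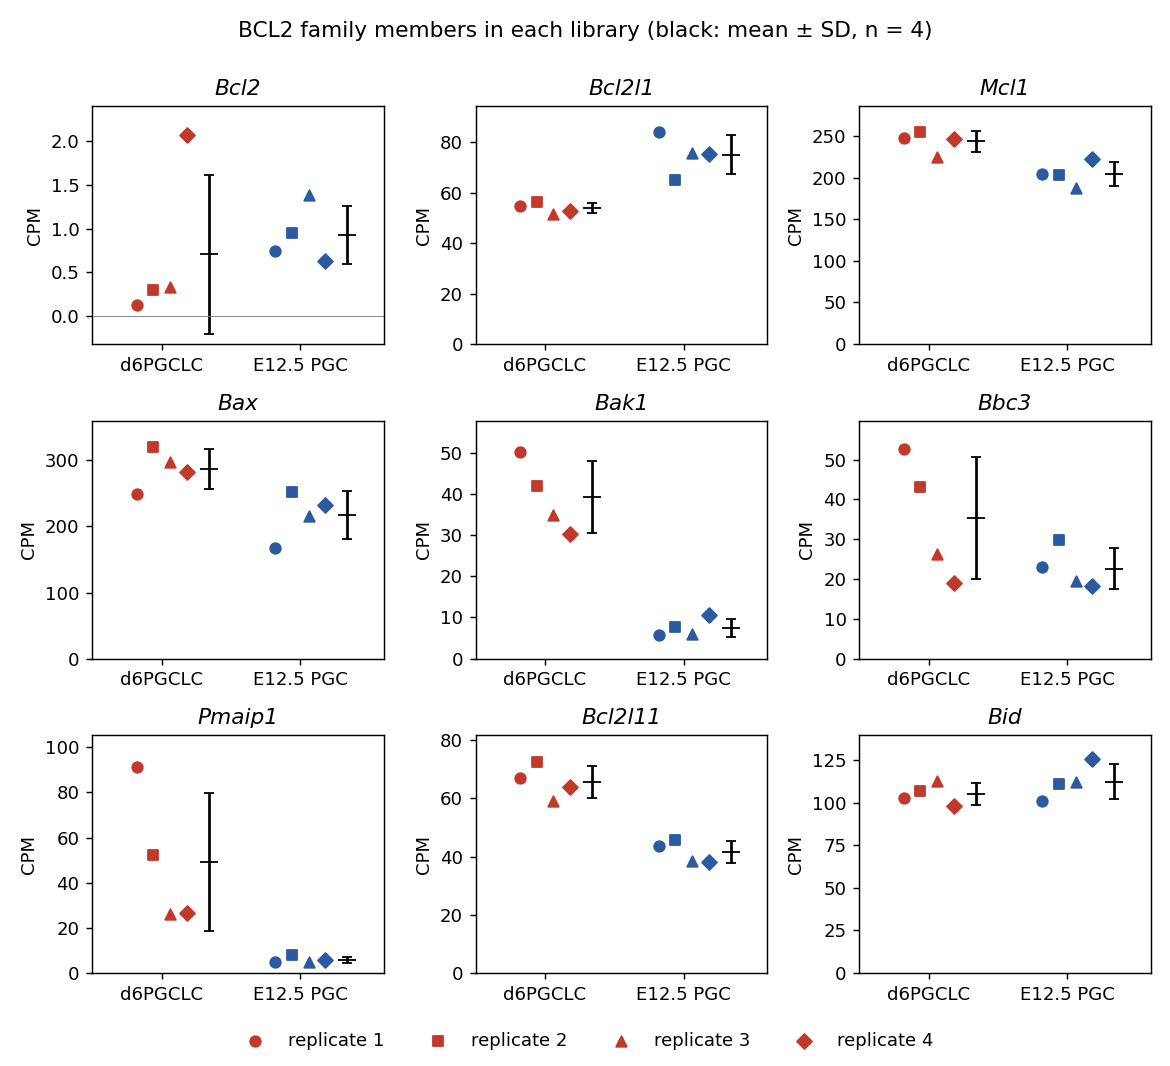
CPM (y axes from 0 or just below) of the 9 members in each of the 4 d6PGCLC and 4 E12.5 PGC libraries, with marker shapes for the replicate and black bars for mean ± SD. Bak1 and Pmaip1 are separated most widely, Bcl2l1 is the member with all d6PGCLC libraries below all E12.5 PGC libraries, and 1 d6PGCLC library carries most of the d6PGCLC counts of Bcl2.

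Stretches of genomic DNA upstream of 4 member genes are shown here, because Bax, Bbc3 and Bcl2l11 were higher in d6PGCLCs and Bcl2l1 was lower, and because p53 and FOXO factors are known to act on the first 3. All come from RefSeq on GRCm38.p6, run 5′ to 3′ on the strand of the gene and end at or before the base in front of an annotated start. Capitals mark the p53 consensus decamer in Bax and the FOXO core GTAAACA, on either strand, in Bbc3 and Bcl2l11, and Bcl2l1 holds neither. For Bcl2l11 only 27 bases are printed, since the window lies in the span of the neighbouring gene Acoxl. For Bbc3 the second of 3 annotated starts and for Bcl2l1 the outermost of 3 was taken. That Bbc3 start is the only one of its 3 with the FOXO core. The windows of Bak1 and Mcl1, which were also higher, hold neither match and are not shown.
Bax, chr7:45466899-45467148, minus strand: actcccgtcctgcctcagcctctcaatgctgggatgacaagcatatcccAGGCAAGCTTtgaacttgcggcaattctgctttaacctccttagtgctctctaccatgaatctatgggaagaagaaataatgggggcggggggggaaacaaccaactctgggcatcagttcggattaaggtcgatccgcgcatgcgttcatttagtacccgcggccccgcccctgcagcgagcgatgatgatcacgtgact
Bbc3, chr7:16310011-16310260, plus strand: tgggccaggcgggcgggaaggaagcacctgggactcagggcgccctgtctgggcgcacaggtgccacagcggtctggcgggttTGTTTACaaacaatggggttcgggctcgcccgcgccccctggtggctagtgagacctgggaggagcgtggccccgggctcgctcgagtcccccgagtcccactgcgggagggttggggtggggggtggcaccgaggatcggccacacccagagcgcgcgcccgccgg
Bcl2l11, chr2:128125801-128125827, plus strand: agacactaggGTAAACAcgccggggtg
Bcl2l1, chr2:152831729-152831978, minus strand: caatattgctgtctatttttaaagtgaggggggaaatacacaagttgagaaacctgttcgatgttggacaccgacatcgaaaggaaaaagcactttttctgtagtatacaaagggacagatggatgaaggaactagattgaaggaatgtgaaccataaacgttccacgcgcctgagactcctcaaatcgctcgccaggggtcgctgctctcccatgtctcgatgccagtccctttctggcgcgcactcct

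The search covered both strands of the 250 bases before each of 15 annotated starts of 9 members, Bad included and Pmaip1 not. The p53 consensus decamer occurred in 1 of these windows, that of Bax, with its first base 201 bases before the start, and in 7.13% of all 32851 windows of this length. The FOXO core GTAAACA occurred in 2 windows, 227 bases before the Bcl2l11 start and 167 bases before the Bbc3 start, and in 3.17% of all windows. The GC box GGGCGG occurred in 10 of the 15 windows, from 7 members, against 32.7% of all windows. The E-box CACGTG occurred in 2 windows, 9 bases before the Bax start and 64 bases before another Bbc3 start, against 6.02% of all windows. The CCAAT box CCAAT occurred in 4 windows, from 3 members, against 33.8% of all windows. The TATA box TATAAA occurred in none of the members' windows and in 12.4% of all windows. Such a match describes the letters of the window and is neither a binding site nor a cause of a difference in RNA.

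The pro-survival members moved in different directions. Bcl2l1 (Entrez 12048, chr2:152758732-152833803) was 1.39-fold lower in d6PGCLCs. It stood at 54.8, 56.2, 51.5 and 52.9 CPM in the 4 d6PGCLC libraries and at 84.1, 65.1, 75.6 and 75.5 CPM in the 4 E12.5 PGC libraries. Every d6PGCLC library was below every E12.5 PGC library, and the d6PGCLC values lay within 1.09 times of each other. On the log2 scale the fold change was -0.48 ± 0.11 (SE; edgeR adjusted p = 0.0011), with a 95% interval from -0.70 to -0.26.

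Mcl1 (Entrez 17210, chr3:95656944-95663179), a short-lived protein that holds BAK1 and BIM in check, was 1.19-fold higher in d6PGCLCs. Its levels were 248, 255, 226 and 247 CPM in the d6PGCLC libraries and 204, 204, 188 and 223 CPM in those of E12.5 PGCs. The groups came close to each other without overlapping, at 226 and 223 CPM. The log2 fold change of 0.25 ± 0.09 (SE) had an edgeR adjusted p of 0.03. That call was lost without d6PGCLC replicate 2 (adjusted p = 0.0677) or 4 (0.0623) and without E12.5 PGC replicate 1 (0.0583) or 3 (0.146), and also with library-size (0.0508) or upper-quartile scaling (0.0649).

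Bcl2 (Entrez 12043, chr1:106538176-106714290), the founding member of the family, was close to the limit of detection. Its counts were 1, 3, 4 and 17 in d6PGCLCs and 6, 9, 15 and 7 in E12.5 PGCs, which correspond to 0.128, 0.305, 0.332 and 2.06 CPM and to 0.749, 0.947, 1.38 and 0.632 CPM. Replicate 4 held most of the d6PGCLC counts and was the highest of all 8 libraries, while the other 3 were the lowest of all. The log2 fold change of -0.45 ± 0.62 (SE) did not pass the edgeR test (adjusted p = 0.729), and its 95% interval ran from -1.74 to 0.83. Without d6PGCLC replicate 4 it was -1.76 (adjusted p = 0.0323), so that this library decides the call.

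The effectors were both higher in d6PGCLCs, by different amounts. Bak1 (Entrez 12018, chr17:27019812-27028627) was 5.24-fold higher. It had 50.3, 41.9, 34.9 and 30.2 CPM in the d6PGCLC libraries and 5.61, 7.58, 5.99 and 10.6 CPM in those of E12.5 PGCs. The lowest d6PGCLC library was far above the highest E12.5 PGC library. The log2 fold change was 2.39 ± 0.20 (SE; edgeR adjusted p = 4.24e-09), and it stayed between 2.25 and 2.61 when any 1 library was left out.

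Of the 2407 exonic bases of all Bak1 isoforms in GENCODE M21, 614 (25.5%) are also exonic in Ggnbp1, a gene on the opposite strand. Ggnbp1 had 36 to 67 counts in d6PGCLCs and 10 to 19 in E12.5 PGCs, where Bak1 had 249 to 420 and 45 to 117. The libraries were stranded, but whether the counting used strand was not given in the sources used here. Reads that the pair of genes might share were therefore not separated, and their part in the difference was not tested. Bid shares 628 exonic bases with Bcl2l13 in the same way, Bcl2 shares 558 with D630008O14Rik, and Bax shares 192 with the overlapping transcript Gm45808 of its own strand.

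Bax (Entrez 12028, chr7:45461695-45466903) was 1.32-fold higher in d6PGCLCs. It had 249, 320, 298 and 283 CPM in the d6PGCLC libraries and 167, 252, 216 and 233 CPM in those of E12.5 PGCs. The groups overlapped only through the lowest d6PGCLC library, replicate 1, which lay just under E12.5 PGC replicate 2. Its log2 fold change was 0.40 ± 0.11 (SE; edgeR adjusted p = 0.00706). The 95% interval, 0.17 to 0.64, lay below that of Bak1, 1.98 to 2.80.

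The BH3-only members held the largest difference. Pmaip1 (Entrez 58801, chromosome 18), which binds MCL1, was 8.38-fold higher in d6PGCLCs. It had 91.4, 52.4, 26.2 and 26.7 CPM in the d6PGCLC libraries and 4.74, 7.79, 4.89 and 5.87 CPM in those of E12.5 PGCs. All d6PGCLC libraries were above all E12.5 PGC libraries, yet within d6PGCLCs the highest was 3.49 times the lowest. The log2 fold change was 3.07 ± 0.31 (SE; edgeR adjusted p = 9.89e-08), and it ranged from 2.59 to 3.28 with any 1 library left out.

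Bbc3 (Entrez 170770, chr7:16308398-16318334), which binds all pro-survival members, was 1.56-fold higher in d6PGCLCs. It had 52.6, 43.2, 26.3 and 19.0 CPM in the d6PGCLC libraries and 23.0, 29.8, 19.5 and 18.1 CPM in those of E12.5 PGCs. Replicates 1 and 2 of the d6PGCLCs were above every E12.5 PGC library, and replicates 3 and 4 lay inside the E12.5 PGC range. The log2 fold change of 0.64 ± 0.23 (SE) had an edgeR adjusted p of 0.037.

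The Bbc3 call was not stable. Without d6PGCLC replicate 1 the log2 fold change was 0.39 (adjusted p = 0.134) and without replicate 2 it was 0.52 (adjusted p = 0.142). Leaving out E12.5 PGC replicate 3 or 4 gave 0.58 (adjusted p = 0.0958) and 0.55 (adjusted p = 0.11). The call was lost as well under library-size scaling, upper-quartile scaling, either filter on low counts and the length offset (adjusted p from 0.0584 to 0.0675).

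Bcl2l11 (Entrez 12125, chr2:128126038-128162547), an activator of BAX and BAK1 that responds to loss of growth factors, was 1.59-fold higher in d6PGCLCs. It had 67.1, 72.5, 59.2 and 63.8 CPM in the d6PGCLC libraries and 43.5, 45.8, 38.4 and 38.1 CPM in those of E12.5 PGCs. The groups were apart in every library. Its log2 fold change was 0.66 ± 0.11 (SE; edgeR adjusted p = 6.76e-05).

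Bid (Entrez 12122, chr6:120893119-120917062), which links death receptors to the mitochondrion once caspase-8 has cut it, had 103, 107, 113 and 98.1 CPM in the d6PGCLC libraries and 101, 111, 112 and 126 CPM in those of E12.5 PGCs. The groups overlapped over most of their range. A log2 fold change of -0.10 ± 0.10 (SE) did not pass the edgeR test (adjusted p = 0.557), and the 95% interval ran from -0.30 to 0.10.

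**Figure D2:**
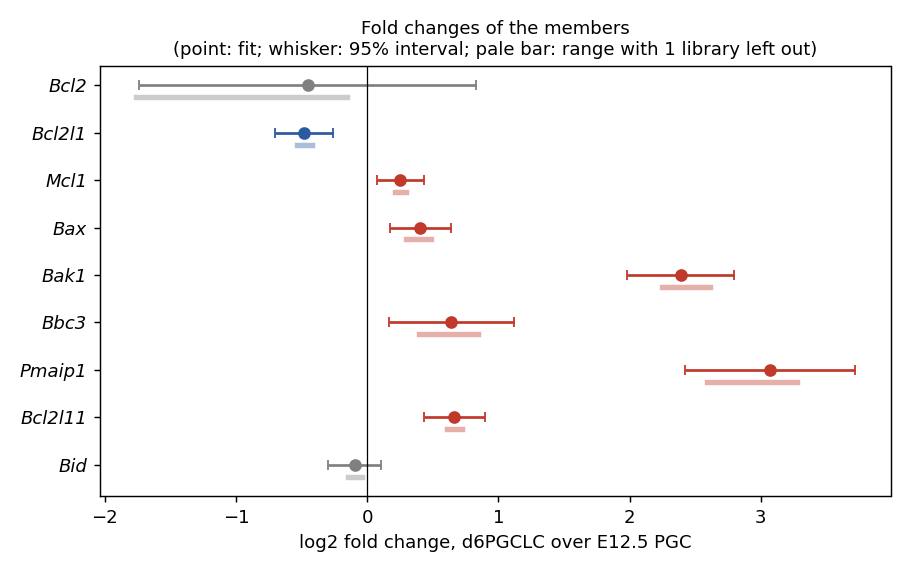
Log2 fold change (x axis, d6PGCLC over E12.5 PGC) of each member, with whiskers for the 95% interval of the edgeR fit and a pale bar under each for the range of values when 1 library is left out. Red points passed the test upwards and the blue point downwards, and Bak1 at 2.39 and Pmaip1 at 3.07 lie apart from the other members.

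To compare genes with each other, CPM were divided by the length of the counted isoform. That gives RPKM, the reads per kilobase and per 1e6 counted reads. The isoform was picked at random for each gene, and only uniquely mapped reads were counted. An order of different genes by RPKM depends on these choices too, and their part in it was not tested. In d6PGCLCs Bax was the most abundant member at 259 ± 27.0 RPKM (SD, n = 4), followed by Mcl1 at 67.6 ± 3.55 RPKM, Bid at 49.3 ± 2.96 RPKM and Bcl2l1 at 21.2 ± 0.810 RPKM. These first 4 did not overlap with their neighbours in that order, except that Bcl2l1 overlapped with the next. Pmaip1 (17.7 ± 11.1 RPKM), Bak1 (17.1 ± 3.81 RPKM), Bbc3 (16.5 ± 7.18 RPKM) and Bcl2l11 (12.6 ± 1.07 RPKM) came next, each overlapping with its neighbour in the order. Bcl2 was last at 0.0969 ± 0.124 RPKM.

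The E12.5 PGCs kept the same 4 members on top, with Bax at 196 ± 32.9 RPKM, Mcl1 at 56.8 ± 3.96 RPKM, Bid at 52.7 ± 4.77 RPKM and Bcl2l1 at 29.5 ± 3.05 RPKM. Mcl1 and Bid overlapped, as did Bbc3 (10.6 ± 2.44 RPKM) and Bcl2l11 (7.97 ± 0.736 RPKM). Bak1 (3.23 ± 0.977 RPKM) and Pmaip1 (2.10 ± 0.506 RPKM) overlapped below them, and Bcl2 was again last at 0.127 ± 0.0453 RPKM. The order thus differed between the groups in the place of Bak1 and Pmaip1, which stood among the middle members in d6PGCLCs and below Bcl2l11 in every E12.5 PGC library.

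**Figure D3:**
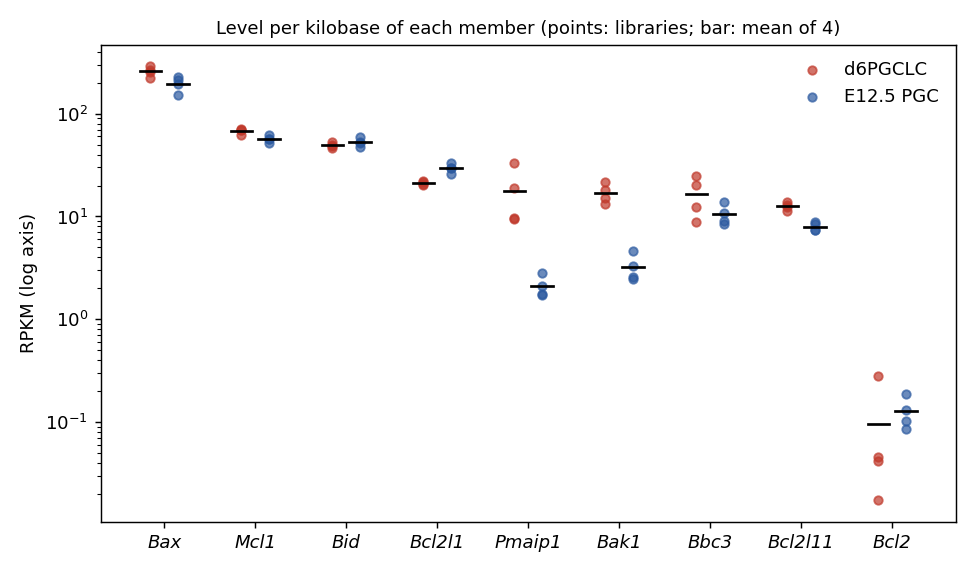
Level per kilobase (RPKM, log axis) of each member, with points for single libraries and bars for the mean of 4. Bax leads in both groups (259 and 196 RPKM), Bcl2 is lowest in both, and the gap between the groups is widest in Pmaip1 and Bak1.

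Ratios between members within a library describe the same pattern without a common scale, and no test was made of them. Their size depends on the counted isoforms as well. Bax RNA exceeded Bak1 RNA by 10.3 to 19.5 times in d6PGCLCs and by 45.8 to 74.8 times in E12.5 PGCs, on the RPKM scale. Mcl1 RNA exceeded Bcl2l1 RNA by 3.08 to 3.29 times in d6PGCLCs and by 1.71 to 2.21 times in E12.5 PGCs. Neither ratio overlapped between the groups, and neither did Bak1, Bcl2l1 or Mcl1 taken singly. No share over ratios of other genes was computed. The summed RPKM of the 2 effectors over that of the 3 pro-survival members was 2.73 to 3.42 in d6PGCLCs and 1.70 to 2.80 in E12.5 PGCs, and here the ranges met. The summed RPKM of the pro-survival members was nearly alike, 82.8 to 92.9 and 82.1 to 91.7, with less Bcl2l1 and more Mcl1 in it in d6PGCLCs.

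The members also differed in how much they varied within a group. In d6PGCLCs, Bcl2 had a coefficient of variation of 128%, at 1 to 17 counts a library. Of the better-counted members, Pmaip1 had a coefficient of variation of 62.4% over the 4 libraries and Bbc3 of 43.5%. Among genes within 2 times of their levels the medians were 12.3% and 13.2%, and 99.8% and 98.6% of those genes varied less. Bak1 followed at 22.3%, where 85.5% of genes of like level varied less. Bcl2l1 was at the other end with 3.82%, and 3.70% of genes of like level varied less than it. In E12.5 PGCs, Bax at 16.8% and Bbc3 at 23.1% were the members with the widest spread for their level, with 95.7% and 94.3% of like genes below them.

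Several members were highest in the same d6PGCLC libraries. Replicates 1 and 2 were both above replicates 3 and 4 in 6 of the 9 members (Bcl2l1, Mcl1, Bak1, Bbc3, Pmaip1 and Bcl2l11), in 10 of 17 p53 pathway genes, and in 23.2% of the genes with a mean of at least 1 CPM. Zmat3, an RNA-binding target of p53, had 221, 165, 123 and 132 CPM in d6PGCLC replicates 1 to 4. Phlda3, a p53 target that restrains AKT, had 39.3, 44.8, 26.2 and 24.4 CPM. Bax (249, 320, 298 and 283 CPM) and Trp53 (661, 684, 726 and 710 CPM) were among the genes that did not follow. Mcl1 followed narrowly, with 247.7 CPM in replicate 1 and 247.2 CPM in replicate 4. The pattern of replicates 1 and 2 was noticed after the values had been seen, and its part in the differences between the groups was not tested.

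**Figure D4:**
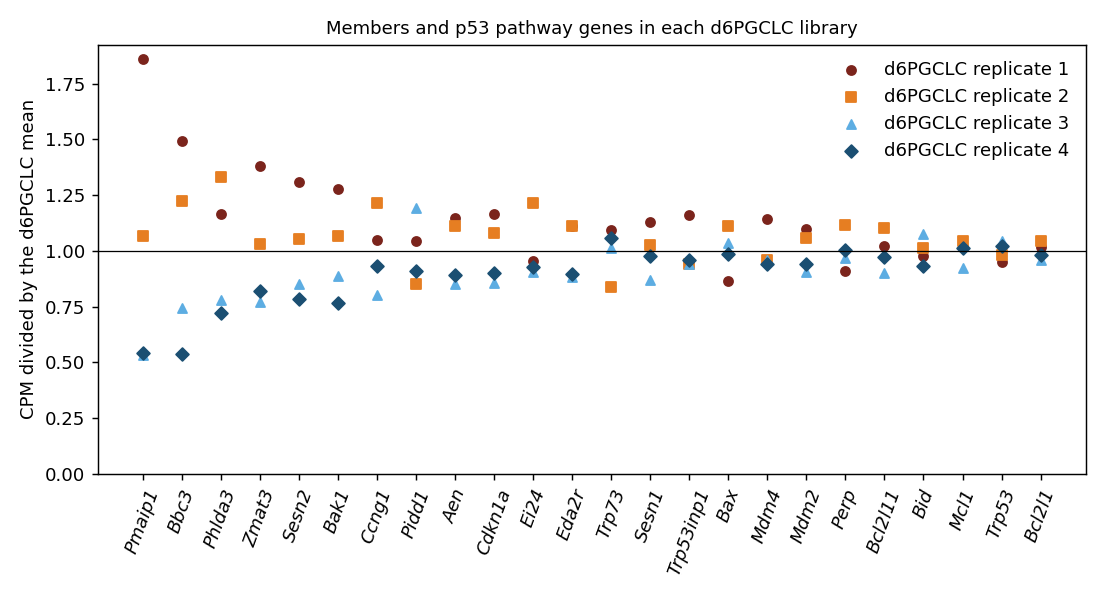
CPM of each d6PGCLC library divided by the mean of the 4 (y axis), for the members other than Bcl2 and the p53 pathway genes with at least 100 counts on average, ordered by their spread. Pmaip1 and Bbc3 stand at the left with replicates 1 and 2 above 1 and replicates 3 and 4 below, and Bcl2l1, the least variable, at the right.

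The wider apoptosis pathway was followed through 5 lists of genes, in which 65 of 72 genes had a row. Of the 65, 24 were higher in d6PGCLCs, 12 were lower and 29 did not pass the edgeR test, with a median log2 fold change of 0.08. These counts stand beside the 28.1% higher and 25.6% lower of all genes with a mean of at least 1 CPM.

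The remaining BCL2 family, 15 genes, held 5 that were higher and 2 that were lower. Bcl2l2 (BCL-W), a further pro-survival protein, was measured at 49.8 ± 4.31 CPM (SD, n = 4, as for all values below) in d6PGCLCs and at 31.2 ± 2.01 CPM in E12.5 PGCs (log2 fold change 0.67, edgeR adjusted p = 9.66e-05). Bnip3, a mitochondrial protein that responds to low oxygen, was at 107 ± 15.8 and 48.7 ± 1.73 CPM (log2 fold change 1.13, edgeR adjusted p = 5.39e-08). Bmf, a BH3-only protein released on loss of attachment, went the other way with 46.2 ± 7.62 and 89.2 ± 11.5 CPM (log2 fold change -0.95, edgeR adjusted p = 3.64e-06). Its direction was thus opposite to that of Bcl2l11, Bbc3 and Pmaip1, and the groups did not overlap.

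Bik, another BH3-only protein, was low in both groups, with 3.48 to 4.48 CPM in d6PGCLCs against 0.184 to 0.624 CPM in the E12.5 PGCs (log2 fold change 3.29, edgeR adjusted p = 3.68e-07). Bok, a further effector, had 5.08 ± 1.05 and 3.06 ± 0.423 CPM (log2 fold change 0.74, edgeR adjusted p = 0.0251). That call was lost without d6PGCLC replicate 2 (adjusted p = 0.103), without E12.5 PGC replicate 2 (0.0637) or 3 (0.0809), and with the length offset (0.0506). The other genes that passed were Bcl2l14 upwards and Bcl2l15 downwards, both under 5 CPM and named after their values were seen, and with 1 library left out the adjusted p of Bcl2l15 rose to as much as 0.0677 (edgeR, without d6PGCLC replicate 3), past the threshold. Bcl2a1a, Bcl2a1b and Bcl2a1d had no counted read in any library; they are near-identical copies, and only uniquely mapped reads were counted.

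Downstream of the mitochondrion, 15 of 18 apoptosome and caspase genes had a row, with 3 higher, 6 lower and a median log2 fold change of -0.23. Apaf1, the scaffold of the apoptosome, had 101 ± 18.0 CPM in d6PGCLCs against 74.5 ± 1.12 CPM in the E12.5 PGCs (log2 fold change 0.44, edgeR adjusted p = 0.00359). The groups did not overlap in this gene.

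Lower in d6PGCLCs were Birc6, a giant inhibitor of apoptosis (log2 fold change -1.19, edgeR adjusted p = 2.32e-06), and Diablo (SMAC), which antagonizes such inhibitors (-0.83, adjusted p = 1.97e-06). Casp6 (-0.75, adjusted p = 0.000256) and Casp2 (-0.67, adjusted p = 6.43e-06), a caspase known for its part in oocyte death, were lower too. Inhibitors and promoters of apoptosis thus stood among the lower genes together. Xiap, which blocks caspases directly, was at 93.0 ± 5.78 and 111 ± 13.0 CPM and missed the threshold (log2 fold change -0.26, edgeR adjusted p = 0.0568). It passed as lower in 9 of 18 alternatives, among them DESeq2 (adjusted p = 0.0270), library-size scaling (0.0247), the replicate block (0.0263) and leaving out d6PGCLC replicate 1 (0.0325) or E12.5 PGC replicate 2 (0.0127).

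Of 7 death receptor genes with a row, 3 passed, all of them higher. Tnfrsf10b, the mouse TRAIL receptor and a p53 target, had 133 ± 13.8 CPM in d6PGCLCs against 73.2 ± 4.82 CPM in the E12.5 PGCs (log2 fold change 0.86, edgeR adjusted p = 5.22e-07). Casp8, the caspase that cuts BID, was at 2.17 to 4.00 CPM and 0.0922 to 0.542 CPM (log2 fold change 3.25, edgeR adjusted p = 2.42e-06). Tnfrsf1a was the third, and it and Casp8 were named after their values were seen.

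In the p53 pathway list, 11 of 17 genes were higher in d6PGCLCs, 1 was lower and 5 did not pass, with a median log2 fold change of 0.48. Trp53 itself had 661, 684, 726 and 710 CPM in the d6PGCLC libraries and 460, 544, 477 and 520 CPM in those of E12.5 PGCs (log2 fold change 0.48 ± 0.08 (SE), edgeR adjusted p = 0.000101). The largest rises were those of Zmat3 (log2 fold change 1.34, edgeR adjusted p = 1.24e-07) and Eda2r, a TNF receptor family member (1.19, adjusted p = 6.45e-08), with Phlda3 (0.73, adjusted p = 0.00341) and the nuclease gene Aen (0.71, adjusted p = 1.27e-05) after them.

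Mdm2, the ubiquitin ligase that degrades p53 and is its target, was at 308 ± 28.4 and 255 ± 14.9 CPM (log2 fold change 0.28, edgeR adjusted p = 0.0209). Without d6PGCLC replicate 2 (adjusted p = 0.0537), without E12.5 PGC replicate 2 (0.0504), 3 (0.0665) or 4 (0.0614), and with upper-quartile scaling (0.0539), that call was lost. Trp73, a p53 relative, was the lower gene, at 6.07 ± 0.686 and 17.9 ± 1.77 CPM (log2 fold change -1.56, edgeR adjusted p = 2.57e-07). Trp63, the relative through which oocytes respond to DNA damage later in life, was at 1.22 to 2.32 CPM and 0.749 to 1.47 CPM and did not pass (log2 fold change 0.89, edgeR adjusted p = 0.0931). It passed without E12.5 PGC replicate 2 (1.16, adjusted p = 0.0429).

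Among 11 partners and regulators of the family with a row, 2 were higher and 3 lower. Vdac1 and Vdac2, channels of the outer mitochondrial membrane of which the second holds BAK1, had log2 fold changes of 0.98 (edgeR adjusted p = 1.16e-07) and 0.45 (adjusted p = 0.000468). Dynll1, the dynein light chain that tethers BIM, was lower with -0.78 (adjusted p = 6.53e-05), and so was Huwe1, a ubiquitin ligase for MCL1, with -0.38 (adjusted p = 0.0108). Foxo1 was lower with -0.40 (adjusted p = 0.0201), a call lost without d6PGCLC replicate 2 (0.0538), 3 (0.0734) or 4 (0.0539) or E12.5 PGC replicate 1 (0.0839). Foxo3 was at 80.4 ± 14.9 and 76.1 ± 10.6 CPM and did not pass (log2 fold change 0.08, edgeR adjusted p = 0.831).

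**Figure D5:**
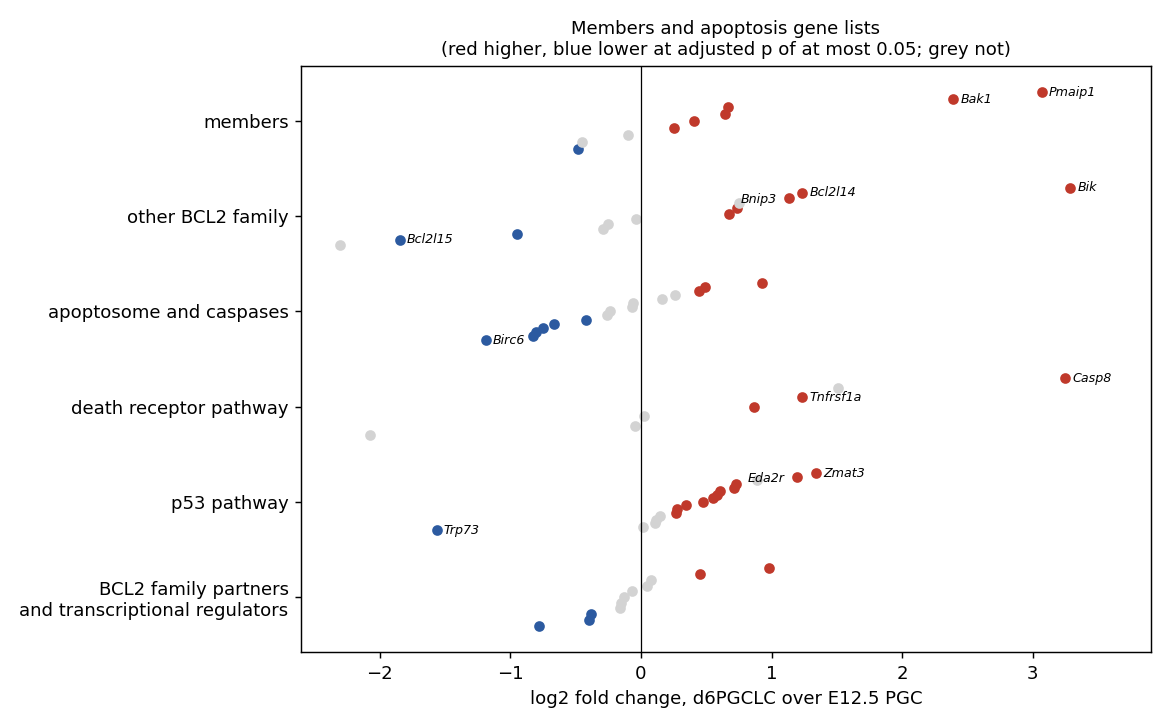
Log2 fold change (x axis, d6PGCLC over E12.5 PGC) of the 9 members and of the genes with a count in 5 pathway lists, 1 point per gene, spread vertically within a list. Red and blue points passed the test upwards and downwards, and the p53 pathway list holds 11 red points and 1 blue one.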

How the data were processed

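The authors sequenced stranded poly(A) libraries as single-end reads, aligned them with STAR to GRCm38 and counted uniquely mapped reads on the exons of an isoform picked at random for each gene, after genes with overlapping promoters had been thinned at random. They deposited raw counts per Entrez identifier, without normalization, and the length of the counted isoform in base pairs. RefSeq gave symbols for 21907 of 21950 identifiers.

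From these counts, CPM and RPKM were computed with TMM-scaled library sizes, and edgeR 4.0.16 in R 4.3.3 was fitted to all genes without a filter (glmQLFit and glmQLFTest, prior count 0.125, cell type as the only term). Standard errors use the posterior quasi-likelihood variance. The steps were tested on simulated counts. DESeq2 1.42.0, the likelihood ratio test, other scalings, filters, a prior count of 2, a replicate block, a length offset, a threshold of 0.01 and leaving out each library were alternatives.

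Members and lists were chosen with earlier results of these data known. Named are all members, up to 4 genes per list and direction with the largest fold change among those past the threshold with at least 100 counts on average, and Bcl2l2, Bok, Bik, Bmf, Apaf1, Xiap, Trp53, Mdm2, Trp63 and Foxo3; a gene that this rule names is not reported here. Limits from counts take in counting error alone, since PCR copies were not recognized. No 2 libraries of a group were duplicates (chi-square divided by its degrees of freedom between 3.35 and 22.1).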

Additional observations from a re-analysis of the deposited data

Results flagged for a closer look

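In 7 of 100 groups of 4 libraries examined over the members and the other named genes, 1 library stood apart from the other 3 by Dixon's criterion, which chance meets in about 5% of groups. Among the members this was Bcl2 in d6PGCLC replicate 4, at 2.06 CPM where the next library had 0.332 CPM. In d6PGCLCs, Tnfrsf10b stood apart in replicate 1 (153.9 CPM, next 128.1 CPM) and Vdac2 in replicate 2 (278.2 CPM, next 227.1 CPM). In E12.5 PGCs, Aen was low in replicate 1 (89.7 CPM, next 98.3 CPM). Replicate 2 of the E12.5 PGCs stood apart in 3 genes, with Jun at 156.3 CPM (next 41.9 CPM), Egr1 at 109.9 CPM (next 64.1 CPM) and Trp63 at 1.47 CPM (next 0.830 CPM). The cause of these values was not tested.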

How the results depend on the processing

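Over 18 alternative settings, each member kept its direction wherever it could be fitted: of 160 such values, 144 kept their side of the threshold, 15 lost the call (Mcl1 and Bbc3) and 1 gained it (Bcl2). With 1 library left out, the number of members lower in d6PGCLCs ranged from 1 to 2, and of those with a log2 fold change of 1 or more in size from 0 to 1, in both cases through Bcl2 without d6PGCLC replicate 4. The number of members higher was 4 with library-size or upper-quartile scaling and at an adjusted p of at most 0.01, 5 with either filter or the length offset, 6 with DESeq2, and 4 to 6 with 1 library left out. Foxo3 turned to -0.0025 with the length offset and to -0.0211 without d6PGCLC replicate 1 (range with 1 library left out -0.0211 to 0.1898), and was not past the threshold in any of them. With a replicate block, 6 members were higher and 1 lower, as without it, and 24 and 14 pathway genes, 3708 and 3562 of all genes. The block lowered the edgeR adjusted p of Bbc3 from 0.037 to 0.000791 and that of Bax from 0.00706 to 2.89e-05. Deviations of same-numbered libraries correlated at 0.253, 0.098, -0.01 and 0.032. Replicates 1, 2 and 4 of the d6PGCLCs correlated best with the same number, and replicate 3 with another. These small correlations do not settle whether the numbers pair the libraries, and the main fit took no pairing. All 90 recomputed levels per length stayed within 1 SD of the reported value. Bcl2 had the fewest counts of the members, 1 to 17 a library, and the widest spread between d6PGCLC libraries; the parts of depth and of replicate 4 in its interval were not separated. A difference within that interval was not detectable in these libraries.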

Other observations

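E12.5 PGC replicate 2 was the highest of its group in Bax, Bbc3, Pmaip1 and Bcl2l11 and the lowest in Bcl2l1. The same library was the highest in the immediate early genes Fos (127 CPM, against 44.9 to 95.7 CPM in the other 3), Jun and Egr1, and in the embryonic globin gene Hbb-y (26.0 CPM, against 0 to 3.37 CPM). Its summed level over 9 immediate early genes was 818 CPM, against 459 to 527 CPM in the other 3. Without this library, 6 members were higher and 1 lower in d6PGCLCs, as with it, with log2 fold changes of 0.49 for Bax, 0.81 for Bbc3, 3.24 for Pmaip1, 0.72 for Bcl2l11 and -0.54 for Bcl2l1. The immediate early genes as a list moved in both directions: 2 of 9 were higher in d6PGCLCs, Junb (log2 fold change 1.83, edgeR adjusted p = 7.45e-09) and Zfp36 (1.75, adjusted p = 1.23e-07), and 5 were lower. Of the 5, Jun (log2 fold change -2.05, edgeR adjusted p = 0.000154), Egr1 (-0.71, adjusted p = 0.00484) and Atf3 (-3.02, adjusted p = 0.00149) kept their calls with any 1 library left out (adjusted p of at most 0.00145, 0.0392 and 0.0217). Their log2 fold changes then ranged from -2.29 to -1.17 for Jun, -0.88 to -0.43 for Egr1 and -3.39 to -1.88 for Atf3. Atf3 had few counts, 1 to 6 in the d6PGCLC and 6 to 84 in the E12.5 PGC libraries, with the most in E12.5 PGC replicate 2. The groups overlapped in Atf3 and in Egr1. Fos and Dusp1 were the others. Without E12.5 PGC replicate 2 the calls of both were lost (log2 fold change -0.40 for each, edgeR adjusted p = 0.135 and 0.0521), and that of Fos was also lost with DESeq2 (-0.72, adjusted p = 0.0844).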
